A study of Mus musculus with 23 samples.

Results

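miR-21a-5p and miR-210-3p are the microRNAs followed here through lung development, as the stress-responsive and the hypoxia-responsive microRNA at the move to air breathing at birth. They are 2 of the 602 microRNA probes of a NanoString nCounter mouse panel, on which barcoded probes are counted without amplification. They were picked by their identifiers (MIMAT0000530 and MIMAT0000658) and not by a cutoff on their values, but with earlier results of these data known. Both identifiers were found, and both microRNAs were among the 302 that passed the background filter and were tested. The 23 samples are total RNA of cells sorted from lungs of wild-type C57BL6 mice with no treatment named. By their labels 10 are endothelial cells (EC, sorted on CD31) and 13 are type II pneumocytes (AT2, sorted on CD326). Before birth lungs were taken on embryonic day 16.5, written E16.5, and on E18.5. After birth they were taken on postnatal day 1, written P1, and likewise on P7, P14 and P28. The AT2 groups held 2 samples each, except 3 at P28. The EC groups also held 2, except 1 at E18.5 and 1 at P1.

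MicroRNAs are short RNAs that guide Argonaute proteins to messenger RNAs, mostly through the seed near their 5′ end, and lower the output of those targets. miR-21 is known as a microRNA that rises in injury, inflammation and fibrosis, and its known targets include the tumour suppressor Pdcd4. miR-210 is known as the microRNA that hypoxia-inducible factor raises most regularly across cell types, and its known targets include the iron-sulphur cluster scaffold Iscu and the ephrin Efna3. The fetal lung develops at low oxygen tension, and its epithelium meets air at birth.

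The mature sequences are shown because the seed decides which targets each microRNA can pair with. RefSeq sequences of build GRCm38.p6 are given 5′ to 3′, with the seed, bases 2 to 8, in capitals.
miR-21a-5p: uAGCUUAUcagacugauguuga
miR-210-3p: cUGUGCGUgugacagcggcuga
miR-21c: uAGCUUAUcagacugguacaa
The 2 microRNAs share no seed. Among 1679 mature mouse microRNAs of the RefSeq table, 1 other, miR-21c, has the seed of miR-21a-5p, and 0 others have that of miR-210-3p. miR-21c is identical to miR-21a-5p over the first 15 bases from the 5′ end. Whether the miR-21a-5p probe also reads it is not given in the sources used here. Both members are 22 bases long, with a GC content of 36.4% in miR-21a-5p and 63.6% in miR-210-3p.

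The hairpins below show from which arm each member is cut, with the mature part in capitals.
Mir21a hairpin: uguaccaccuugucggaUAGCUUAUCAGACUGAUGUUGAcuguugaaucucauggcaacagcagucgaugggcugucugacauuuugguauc
Mir210 hairpin: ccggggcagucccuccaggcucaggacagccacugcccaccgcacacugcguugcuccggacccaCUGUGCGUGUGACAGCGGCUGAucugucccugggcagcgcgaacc
miR-21a-5p occupies bases 18 to 39 of a hairpin of 92 bases, its 5′ arm. miR-210-3p occupies bases 66 to 87 of a hairpin of 110 bases, its 3′ arm. In GRCm38.p6 the mature miR-21a-5p lies on the minus strand at chr11:86584120-86584141, inside the annotated span of the protein-coding gene Vmp1 (chr11:86583858-86683836). Mature miR-210-3p lies on the minus strand at chr7:141221407-141221428. Its hairpin overlapped no other gene of the RefSeq table, and the nearest was Rassf7 (chr7:141215425-141218658). Exons and introns were not used here.

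The values are scaled counts, the barcode counts of a sample times 1 factor for that sample. The microRNA counts ranged from 26640 to 571706 per sample. A background limit was set for each sample at the mean plus 2 SD of 8 negative control probes. miR-21a-5p was above that limit in 23 of 23 samples and miR-210-3p in 21 of 23. In the 2 exceptions, EC P14 replicate 1 and EC P28 replicate 1, miR-210-3p stood at 21 and 10 counts against limits of 33.9 and 16.874. Across all tested microRNAs, the best-correlated partner had the same cell type label for 23 of 23 samples. EC P14 replicate 2 came closest to crossing, with r = 0.938 to EC P1 replicate 1 and r = 0.932 to AT2 P7 replicate 2 (Pearson, across microRNAs, which are not independent replicates). EC P1 replicate 1 and EC P28 replicate 2 followed, with best correlations to an AT2 sample of 0.909 and 0.871, against 0.786 to 0.854 in the other EC samples. Results are therefore also given without these 3. AT2 P28 replicate 1 had the fewest microRNA counts and a positive control sum of 2190, against 10764 or more in the others. Its negative controls all stood at 1 count, so its background limit is the floor of 1 and any higher count passes. miR-210-3p had 12 counts there. The files do not pair other identifiers with names, so microRNA markers of endothelial, epithelial, blood and mesenchymal cells were not checked.

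In AT2 cells miR-21a-5p was low before birth and, on the deposited scaling, had a higher mean at each stage from P1 to P28. The E16.5 samples held 227.6 and 228.1 scaled counts, those of E18.5 held 173 and 168, and those of P1 held 389 and 621. It reached 1346 and 1519 at P7, 1573 and 3772 at P14, and 4936, 5447 and 4242 at P28. In sorted bulk RNA, a change in the mix of sorted cells and a change in RNA per cell cannot be told apart. All stages carry the same label, type II pneumocytes, and markers were not checked. The lowest of the 9 postnatal samples lay above the highest of the 4 embryonic samples. Such a separation upward was seen in 5.63% of the tested microRNAs. The postnatal change was 3.10 on the log2 scale with and without AT2 P28 replicate 1. The P14 replicates differed most from each other, and the one at 3772 came near the P28 samples.

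The postnatal rise of miR-21a-5p in AT2 cells was 3.10 ± 0.25 (SE) on the log2 scale, 8.57-fold, with the 4 postnatal and the 2 embryonic stages weighted equally (limma, adjusted p = 3.79e-08). In that comparison 50.7% of the tested microRNAs were called, 10.3% higher and 40.4% lower after birth, and the median over all tested was -0.66. Only 3 of the 302 had a more positive change. The rise was 2.95 with the microRNA total and 3.92 with the median shift, with a call in both. From its lowest stage mean at E18.5 to its highest at P28 the difference was 4.82, which is 28.3-fold between geometric means. Its F statistic for any difference among the 6 stages in AT2 cells ranked 1 of 302 (limma F-test, adjusted p = 1.48e-07), where 49% of the tested microRNAs were called. As a share of all microRNA counts it lay between 0.10% and 0.145% in the embryonic samples and between 0.864% and 2.98% at P28. The 0.864% belongs to AT2 P28 replicate 3, against 2.49% and 2.98% in replicates 1 and 2. It is below the 1.03% of both P7 samples, so after P7 the share did not rise in every sample.

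From E18.5 to P1, the step across birth, miR-21a-5p rose by 1.52 ± 0.41 in AT2 cells (limma, adjusted p = 0.0276), a step in which 8.61% of the tested microRNAs were called and the median was -0.63. All E18.5 samples have a title ID that begins with LMM.15 and all P1 samples one that begins with LMM.16, so within this step stage and ID prefix cannot be told apart. With the prefix as a covariate, set by the AT2 P28 and EC P14 and P28 groups that hold both, the step was 1.35 and did not pass (limma, adjusted p = 0.335). It was 1.33 with the microRNA total, also without a call (limma, adjusted p = 0.192), and 2.16 with the median shift, 2.18 with edgeR and 2.15 with DESeq2, with a call. The call was also lost without either E18.5 sample (1.50 and 1.54) and without AT2 P1 replicate 2 (1.19). The later steps had estimates of 1.54 ± 0.41 from P1 to P7, 0.77 ± 0.41 from P7 to P14 and 0.99 ± 0.37 from P14 to P28, and none passed on its own (limma, adjusted p = 0.0793, 0.622 and 0.136). In the first and last of these steps 0.662% and 1.99% of the tested microRNAs were called. The step from E16.5 to E18.5 was -0.42 ± 0.41 (limma, adjusted p = 0.802; 0.662% called).

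**Figure D1:**
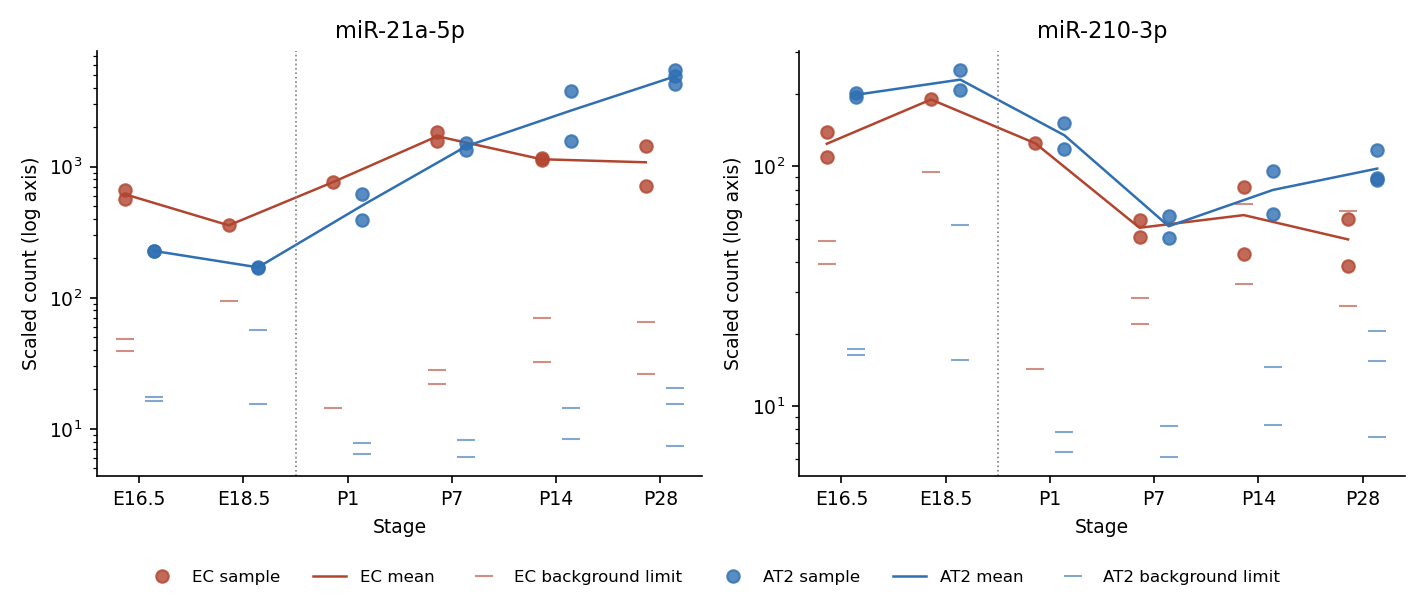
Scaled counts of miR-21a-5p (left) and miR-210-3p (right) by stage, on log axes. Points are samples, lines join the arithmetic means of each cell type, short bars are each sample's background limit, and the dotted line marks birth. miR-21a-5p runs from 168 to 5447 in AT2 cells, and miR-210-3p lies between 195 and 252 in the embryonic AT2 samples and at 151 or below afterwards.

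In EC miR-21a-5p had its highest mean at P7 and not at the last stage. The E16.5 samples held 571 and 663, the 1 sample of E18.5 held 357 and the 1 sample of P1 held 762. It was highest at P7 (1846 and 1564), and then 1163 and 1114 at P14 and 710.1 and 1448 at P28. All 7 postnatal samples lay above the 3 embryonic ones, by a margin of 663 against 710.1, as in 3.64% of the tested microRNAs. The P28 replicates were the most unequal of the EC pairs, and the lower of them was below the P1 sample.

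The postnatal rise in EC was 1.24 ± 0.30, or 2.36-fold (limma, adjusted p = 0.00518), in a comparison where 38.4% of the tested microRNAs were called, 7.62% higher and 30.8% lower after birth, and the median was -0.64. The share of counts ranged from 0.124% to 0.539% over the EC samples. The F-test for any difference among stages also passed (limma, adjusted p = 0.0207), as it did for 27.2% of the tested microRNAs. The call rests on EC E18.5 replicate 1, the lowest EC sample, whose 45 counts were the fewest for this microRNA: without it the rise was 0.84 (limma, adjusted p = 0.0762). Scaled to the microRNA total of each sample, the rise was 1.30 and did not pass (limma, adjusted p = 0.0745). It was larger, and called, with the median shift (1.83, 3.55-fold), edgeR (1.90, 3.75-fold) and DESeq2 (1.93, 3.81-fold). The step from E18.5 to P1, 1 sample each, was 1.09 ± 0.58 (limma, adjusted p = 0.271), where 1.32% of the tested microRNAs were called. The later EC steps were 1.16 ± 0.50 from P1 to P7, -0.58 ± 0.41 to P14 and -0.17 ± 0.41 to P28, and none passed (limma, adjusted p = 0.386, 0.526 and 0.932), with 0.331% called in the first of them. The rise was 1.24 without EC P14 replicate 2.

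On the deposited scaling the 2 cell types exchanged order during the time course. At E16.5 both AT2 samples were below both EC samples, as in 53.3% of the tested microRNAs, and the difference of AT2 minus EC was -1.43 ± 0.41 (limma, adjusted p = 0.0125), which is 2.69-fold lower in AT2 cells. At that stage 35.8% of the tested microRNAs were called. The median of AT2 minus EC there was -0.56 over all tested and -1.35 over the 248 microRNAs never above background. The difference kept its sign under 6 other scalings and background treatments, but was -0.37 with scaling to the microRNA total, -0.86 with DESeq2 and -1.17 with edgeR and lost its call in these 3 (adjusted p = 0.801, 0.20 and 0.0882). At E18.5, P1 and P7 the differences were -1.06 ± 0.50, -0.63 ± 0.50 and -0.25 ± 0.41, and none passed (limma, adjusted p = 0.185, 0.470 and 0.625), where 2.65%, 7.28% and 44% of the tested microRNAs were called. At P14 both AT2 samples were above both EC samples, as in 14.2% of the tested microRNAs, and the difference of 1.10 ± 0.41 missed the threshold (limma, adjusted p = 0.0608; 21.9% called). At P28 all 3 AT2 samples were above both EC samples, as in 19.2% of the tested microRNAs, and the difference was 2.26 ± 0.37 or 4.78-fold (limma, adjusted p = 0.000234; 29.1% called). The P28 difference passed under the same 6 alternatives, at 2.30 to 2.77. The median over all tested at P28 was -0.39.

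The change from embryonic to postnatal stages was itself larger in AT2 cells than in EC, by 1.86 ± 0.39 (limma interaction contrast, adjusted p = 0.0141). That contrast was passed by 1.66% of the tested microRNAs. The stage profile as a whole also differed between the cell types (limma F-test, adjusted p = 0.00435), with the F statistic ranking 2 of 302 and 1.32% called. Averaged over the stages, AT2 minus EC was -0.0025 ± 0.18 (limma, adjusted p = 0.992), and both its sign and its call depended on the scaling. It was 0.35 with the median shift, without a call, but 0.80 with the microRNA total (limma, adjusted p = 0.0253) and 0.55 with DESeq2 (adjusted p = 0.0246), higher in AT2 cells and called in both. Sample titles carry an ID, and 9 IDs occur on 1 sample of each cell type; the labels do not say what an ID marks. Within these 9 the AT2 sample was higher in 3, the P14 ID and both P28 IDs, and lower in the other 6. Those differences ran from -1.54 in an E16.5 ID to 2.80 in a P28 ID, with a mean of -0.06 ± 1.45 (SD, n = 9, two-sided exact sign-flip permutation test, p = 0.918, adjusted p = 0.918 over 5 exact tests). The interaction was 1.64 with scaling to the microRNA total and 1.88 with edgeR on the recovered counts and did not pass in either. It also missed without EC E16.5 replicate 2 (1.81, limma, adjusted p = 0.056).

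Title IDs begin with LMM.15 or LMM.16, and each prefix was also fitted alone, with the stages it holds. The LMM.15 samples hold E18.5, P7 and P28 of both cell types and P14 of EC, and their only embryonic EC sample is EC E18.5 replicate 1. The LMM.16 samples hold E16.5, P1, P14 and P28, so the sets compare different stages. In AT2 cells miR-21a-5p rose after birth by 3.99 among the LMM.15 and by 2.91 among the LMM.16 samples (limma, adjusted p = 1.40e-08 and 0.000304). In EC its change was 1.65 against that 1 embryonic sample among the LMM.15 samples, and 0.80 among the LMM.16 samples, where it did not pass (limma, adjusted p = 0.144). The difference between the cell types was 2.34 and 2.11, the first resting on the same 1 sample and the second without a call (limma, adjusted p = 0.0747). miR-210-3p fell in AT2 cells by 1.69 among the LMM.15 and by 0.89 among the LMM.16 samples (limma, adjusted p = 0.000458 and 0.0450). In EC its change was -2.05 against the 1 embryonic LMM.15 sample, and -0.53 among the LMM.16 samples, where it did not pass (limma, adjusted p = 0.220).

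**Figure D2:**
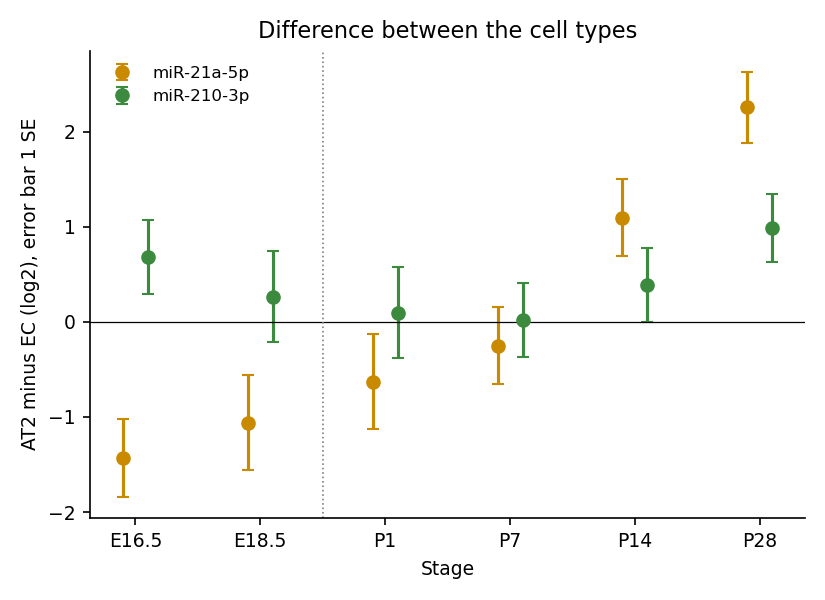
Difference of AT2 minus EC on the log2 scale at each stage, with points as limma estimates and error bars of 1 SE. miR-21a-5p goes from -1.43 at E16.5 to 2.26 at P28, and miR-210-3p has its highest difference, 0.99, at P28.

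miR-210-3p took the opposite course in AT2 cells, high before birth and lower after it. The E16.5 samples held 195 and 203 scaled counts, those of E18.5 held 252 and 208, and those of P1 held 118 and 151. It was lowest at P7 (50.3 and 62.3), with 96.1 and 63.5 at P14 and 89.2, 87.8 and 117 at P28. All 9 postnatal samples lay below the 4 embryonic ones, a separation downward that 16.6% of the tested microRNAs showed. The fall from E18.5, the highest stage mean, to P7, the lowest, was 4.04-fold between geometric means. All 13 AT2 samples were at 3.64 times their background limit or more, though the limit of AT2 P28 replicate 1 is only the floor of 1 count.

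Relative to the deposited scaling, miR-210-3p fell by 1.29 ± 0.24 from embryonic to postnatal AT2 samples (limma, adjusted p = 0.000209). In that comparison 40.4% of the tested microRNAs were called lower. The tested microRNAs as a whole also went down, by a median of -0.66, and 65 of the 302 had a more negative change than miR-210-3p. For the 248 microRNAs never above background, the median was -0.86. Relative to the median of all tested, miR-210-3p stood at -0.63. With each sample shifted to the same median its change was -0.47 and with quantile normalization -0.68, and neither passed (limma, adjusted p = 0.217 and 0.0574). With background subtracted it was -1.28 (limma, adjusted p = 0.0669). edgeR and DESeq2 on the recovered counts gave -0.68 and -0.72 and kept the call. The adjusted p of this fall ranged from 1.75e-06 to 0.217 over 16 alternatives. The part that the scaled background has in this fall was not tested.

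By stage, the step from E18.5 to P1 was -0.77 ± 0.39 and that from P1 to P7 -1.24 ± 0.39 in AT2 cells, and neither passed (limma, adjusted p = 0.161 and 0.092). The later estimates were positive, 0.47 ± 0.39 to P14 and 0.31 ± 0.36 to P28, again without a call (limma, adjusted p = 0.801 and 0.672). Over all 6 stages the F-test passed (limma, adjusted p = 0.00169), as it did for 49% of the tested microRNAs.

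In EC miR-210-3p was highest before birth and at P1 and lower from P7 on. The E16.5 samples held 109.9 and 139, the E18.5 sample 190.25 and the P1 sample 125. Later it was 50.9 and 60.04 at P7, 43.2 and 82.1 at P14, and 38.6 and 60.6 at P28. The 7 postnatal samples overlapped the 3 embryonic ones through the P1 sample alone. The 43.2 and 38.6 are the values below the background limit, so the level in those samples is known only to lie below that limit.

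Relative to the deposited scaling, miR-210-3p fell by 1.19 ± 0.28 from embryonic to postnatal EC samples (limma, adjusted p = 0.00518). In that comparison 30.8% of the tested microRNAs were called lower. The median over all tested was -0.64, that over the 248 undetected microRNAs was -1.41, and miR-210-3p stood at -0.55 relative to the tested median. The call was lost with the median shift (-0.59), the microRNA total (-1.13), edgeR (-0.50), DESeq2 (-0.48) and background subtraction (-1.66), while quantile normalization kept it (-0.98). It was also lost without EC E18.5 replicate 1 (-0.88, limma, adjusted p = 0.056). Without the 3 EC samples closest to AT2 samples the change was -1.74. From the 3 embryonic samples to the 6 samples of P7, P14 and P28 the measured fall was 2.63-fold between geometric means on the deposited scaling. It was 2.23-fold with the samples below background set to their limit. Background was left in the other values, so this is not a lower bound. By single steps the EC estimates were -0.60 ± 0.55 from E18.5 to P1 and -1.16 ± 0.48 from P1 to P7, and neither passed (limma, adjusted p = 0.535 and 0.386). The F-test over stages passed (limma, adjusted p = 0.012), as it did for 27.2% of the tested microRNAs.

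The fall of miR-210-3p did not differ between the cell types beyond its error. The difference of the changes was -0.10 ± 0.37 (limma interaction contrast, adjusted p = 0.918), and the stage profiles did not differ beyond the spread either (limma F-test, adjusted p = 0.832). A p of that size does not show that the falls were alike. The sign of that difference turned with the median shift (0.13), quantile normalization (0.30) and background subtraction (0.38).

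Averaged over the stages miR-210-3p was higher in AT2 cells on the deposited scaling, by 0.41 ± 0.17 or 1.33-fold (limma, adjusted p = 0.0422), in a comparison where 67.2% of the tested microRNAs were called. The median there was -0.43 over all tested and -1.08 over the 248 microRNAs never above background. Within the 9 title IDs it was higher in the AT2 sample in 7, by a mean of 0.45 ± 0.45 (SD, n = 9, two-sided exact sign-flip permutation test, p = 0.0234, adjusted p = 0.0391 over 5 exact tests). That test takes the IDs as pairs, and its call was lost in 7 of the 9 runs that left out 1 ID, with adjusted p up to 0.0781. The call of the fit was lost in 12 of 23 fits that left out 1 sample, at values from 0.33 to 0.48 over all of them. The size depended on the scaling: it was 1.21 with the microRNA total (2.31-fold), 0.96 with background subtracted, 0.91 with DESeq2 and 0.19 with a common floor, with a call in all 4. The largest difference by stage was at P28, 0.99 ± 0.36 (limma, adjusted p = 0.0437), where 29.1% of the tested microRNAs were called. All 3 AT2 samples were above both EC samples there, as in 19.2% of the tested microRNAs. The P28 difference was 2.01-fold as measured and 1.55-fold with EC P28 replicate 1 set to its background limit and background left in the other values. That P28 difference was 1.51 on the log2 scale with the microRNA total and 1.12 with edgeR, without a call in either (adjusted p = 0.0625 and 0.0762). At the other 5 stages the estimates ran from 0.02 ± 0.39 at P7 to 0.68 ± 0.39 at E16.5, and none passed (limma, adjusted p from 0.164 to 0.964). The E16.5 difference passed with the microRNA total (1.75, limma, adjusted p = 0.0401) and with DESeq2 (1.26, adjusted p = 0.0236).

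**Figure D3:**
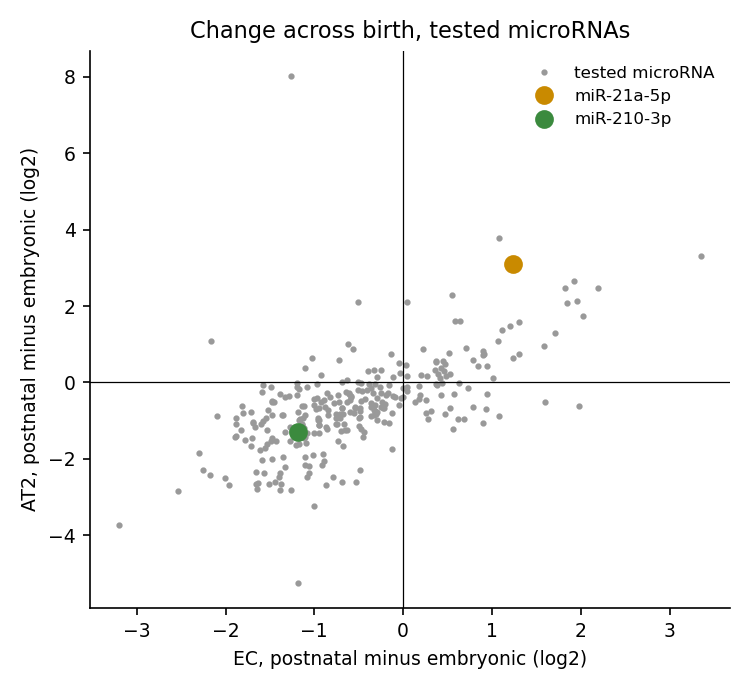
Postnatal minus embryonic change on the log2 scale in EC (horizontal axis) and AT2 cells (vertical axis) for the 302 tested microRNAs in grey, with miR-21a-5p at 1.24 and 3.10 and miR-210-3p at -1.19 and -1.29. miR-21a-5p lies at the upper edge of the cloud, and miR-210-3p lies within the mass of microRNAs with negative changes in both cell types.

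The ratio of miR-210-3p to miR-21a-5p counts in a sample does not depend on the scaling, because the factor of the sample cancels. The probes may differ in efficiency, so the ratio is read only as a change between samples. In AT2 cells its log2 value was -0.22 and -0.17 in the E16.5 pair and 0.55 and 0.30 in the E18.5 pair. It was -1.72 and -2.04 at P1, -4.74 and -4.61 at P7, -4.03 and -5.89 at P14, and -5.79, -5.96 and -5.18 at P28. In EC it was -2.38 and -2.26 in the E16.5 pair, -0.91 at E18.5 and -2.61 at P1, and then -5.18 and -4.70 at P7, -4.75 and -3.76 at P14, and -4.20 and -4.58 at P28. In both cell types the ratio peaked at E18.5, and every postnatal sample lay below every embryonic one. The EC peak is 1 sample, with 24 counts of miR-210-3p and 45 of miR-21a-5p. The EC margin was -2.38 against -2.61. The ratios of EC P14 replicate 1 and EC P28 replicate 1 use miR-210-3p counts below the background limit. Background, unlike the factor, does not cancel in the ratio.

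The mean ratio fell by 4.55 on the log2 scale from the 4 embryonic to the 9 postnatal AT2 samples (exact permutation test, two-sided, p = 0.0014, adjusted p = 0.00699 over 5 exact tests). In EC it fell by 2.41 from the 3 embryonic to the 7 postnatal samples (exact permutation test, two-sided, p = 0.00833, adjusted p = 0.0208). Both p-values are the smallest these designs allow. The falls show that the microRNAs changed unequally, not how much of the change belongs to miR-210-3p. Within the 9 title IDs the ratio of AT2 minus EC was 0.52 ± 1.26 (SD, n = 9, two-sided exact sign-flip permutation test, p = 0.25, adjusted p = 0.312). It was positive in 6, all of them at P7 or earlier, and negative in the P14 ID and both P28 IDs. With background subtracted that difference was 1.00 and passed (exact sign-flip permutation test, adjusted p = 0.0391). In EC the change of the ratio was -2.49 without EC P14 replicate 2 and -2.86 without the 3 EC samples named above.

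**Figure D4:**
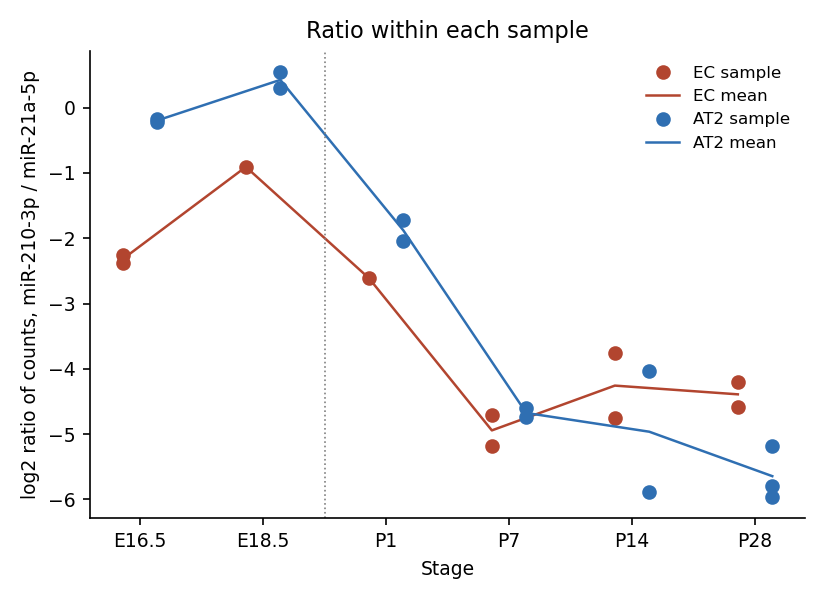
Log2 ratio of miR-210-3p to miR-21a-5p counts within each sample by stage. Points are samples, lines join the means of EC and AT2 cells, and the dotted line marks birth. The embryonic AT2 samples lie between -0.22 and 0.55 and the AT2 P28 samples between -5.96 and -5.18.

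Ordered by group mean, miR-21a-5p was highest in AT2 P28 (4875), AT2 P14 (2672), EC P7 (1705) and AT2 P7 (1433), and lowest in AT2 E18.5 (170.6). In that order the samples overlapped between AT2 P14 and EC P7, among EC P14, EC P28 and EC P1, and between EC E16.5 and AT2 P1, so these neighbours did not separate. For miR-210-3p the order began with AT2 E18.5 (230.2), AT2 E16.5 (199) and EC E18.5 (190.25) and ended with EC P28 (49.6). From AT2 P1 down, each of the 9 groups overlapped the next. The residual SD within groups was 0.39 for miR-21a-5p and 0.32 for miR-210-3p on the log2 scale, against a median of 0.54 over all tested microRNAs.

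Over the 12 group means of log2 values, miR-21a-5p and miR-210-3p ran opposite to each other, with Pearson r = -0.74, and r = -0.81 over the 6 AT2 stages and -0.90 over the 6 EC stages. These are descriptions over few points that share scaling and background. Among 206 microRNAs above background in at least 12 samples, those most like miR-21a-5p were MIMAT0005291 (r = 0.89) and MIMAT0000534 (r = 0.86), and those most like miR-210-3p were MIMAT0003456 (r = 0.90) and MIMAT0001092 (r = 0.84). The files do not pair these identifiers with names.

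**Figure D5:**
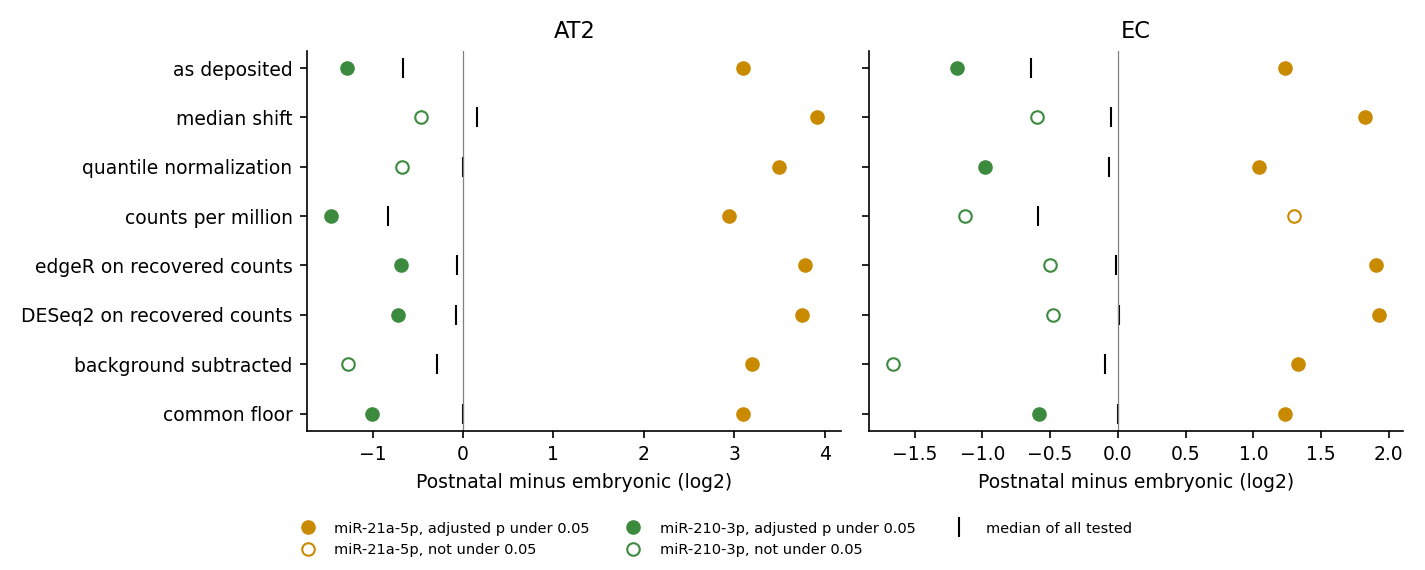
Postnatal minus embryonic change on the log2 scale in AT2 cells (left) and EC (right) under 8 treatments of the data. Filled points passed an adjusted p of 0.05, open points did not, and vertical ticks are the median of all tested microRNAs. miR-21a-5p in AT2 cells passes under all 8, at 2.95 or above, and in the same panel miR-210-3p moves between -1.46 and -0.47.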

How the data were processed

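Total RNA was prepared with the nCounter mouse miRNA kit, per the labels' protocols, and the submitters' processing notes name build mm10. The authors deposited a signal: barcode counts times 1 factor per sample (0.296 to 7.93), as the table shows: 100% of 13861 values were whole multiples of the factor within 0.1, after leaving out 215 values set to 1 in 9 columns. The normalization method is not given in the sources used here. Rows were 602 microRNAs, 14 ERCC controls and 10 others. A microRNA was tested if above background in at least 2 samples.

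limma 3.58.1 (R 4.3.3, eBayes with trend) was fitted to log2(value + 1) with 1 mean per group over 23 samples. Two-sided p-values were adjusted over the 302 microRNAs by Benjamini-Hochberg, with 0.05 as threshold. Background was not subtracted on this scale, so changes of low microRNAs can be understated or overstated. The 248 microRNAs never above background moved by a median of -0.86 in AT2 cells and -1.41 in EC after birth. A group of 1 sample is assumed to vary like the rest. Whether each sample is a separate animal is not in the labels; a p-value here reflects only how far these samples spread, in part perhaps technically. Replicates of 1 group all differed beyond counting noise (lowest chi-square per degree of freedom 8.62). The highest, 879, was between AT2 P28 replicates 2 and 3. edgeR 4.0.16 (quasi-likelihood test) and DESeq2 1.42.0 on recovered counts were alternatives. The limma and edgeR fits were also run on simulated counts, for limma scaled by the depth they were drawn with. That run cannot test the deposited factors, and no result here rests on it. Exact tests were run in Python 3.11.15.

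The members and lists were chosen with earlier results of these data known. The rule for named microRNAs took the members and the microRNAs with the most similar group means, 2 each in place of 5. The hypoxia list, the same-hairpin list and the cell marker lists (endothelial, epithelial, leukocyte, erythroid, mesenchymal) were fixed by name, could not be matched to identifiers and gave no result. Mature and hairpin sequences are from RefSeq (2 of 2 matched).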

Additional observations from a re-analysis of the deposited data

Results flagged for a closer look

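The embryonic-to-postnatal change of miR-21a-5p differed between the cell types by 1.86 ± 0.39 on the log2 scale, with rises of 3.10 in AT2 cells and 1.24 in EC (limma interaction contrast, adjusted p = 0.0141). It stands here because this difference between the cell types was itself tested and passed. Groups were too small, at 3 samples or fewer, for a check of single samples far from the rest.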

How the results depend on the processing

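Many fits with 1 sample left out dropped a sample of a group outside the comparison, so the estimate could not move. For the EC step from E18.5 to P1 all of them gave 1.09 for miR-21a-5p and -0.60 for miR-210-3p. Such fixed estimates are part of the counts that follow. Of 224 values under other settings, 176 kept direction and side of the threshold. Of 331 values with 1 sample or 1 title ID left out, 289 kept both. Where values did not, the cause was not tested. The postnatal rise of miR-21a-5p in AT2 cells kept both throughout (2.91 to 3.99 over 16 settings, 2.94 to 3.26 with 1 sample left out), as did the falls of the ratio in AT2 cells (-4.65 to -4.54; -4.89 to -4.37) and EC (-3.11 to -2.40; -2.68 to -1.94).

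With each sample shifted to 1 median, miR-210-3p changed by -0.47 (AT2 cells) and -0.59 (EC), without a call, its difference between cell types 0.13 and its EC step from E18.5 to P1 0.074. There miR-21a-5p AT2 minus EC was 0.35, and 0.26 within title IDs. Quantile normalization gave miR-210-3p -0.68 in AT2 cells and a difference of 0.30. Scaling to the microRNA total gave miR-21a-5p 0.80 for AT2 minus EC, now called, 0.68 within title IDs, and, without a call, 1.30 for the EC rise, 1.64 for the difference of rises and 1.33 for E18.5 to P1 in AT2 cells, and miR-210-3p -1.13 in EC. edgeR and DESeq2 gave miR-21a-5p 0.36 and 0.55 for AT2 minus EC, the second now called, and miR-210-3p -0.50 and -0.48 for the EC fall and 0.32 and 0.31 for its EC step from E18.5 to P1; with edgeR the miR-21a-5p difference of rises was 1.88, without a call. With background subtracted miR-210-3p changed by -1.28 (AT2 cells) and -1.66 (EC), without a call, with a difference of 0.38; miR-21a-5p AT2 minus EC was 0.012 and the ratio within title IDs 1.00, now called. A pseudocount of 10 and array weights turned miR-21a-5p AT2 minus EC to 0.0087 and 0.0093. A common floor made the miR-210-3p step from E18.5 to P1 in AT2 cells, -0.77, pass. The title prefix as covariate gave 1.35, without a call, for miR-21a-5p in that step.

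With 3 EC samples left out, replicate 1 of P1 and replicate 2 of P14 and of P28, miR-21a-5p AT2 minus EC was 0.22, the miR-210-3p difference of changes 0.45, and its value within title IDs 0.50, no longer called. The prefixes fitted alone were added after seeing the data. LMM.15 gave miR-21a-5p AT2 minus EC 0.52, now called, miR-210-3p AT2 minus EC 0.49, not called, and a miR-210-3p difference of changes of 0.36. LMM.16 gave 0.15 for miR-21a-5p AT2 minus EC, and without a call 0.41 for miR-210-3p, 0.80 and -0.53 for the EC changes and 2.11 for the miR-21a-5p difference.

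With 1 sample left out, AT2 minus EC ran from -0.11 to 0.21 for miR-21a-5p and 0.33 to 0.48 for miR-210-3p, and within title IDs from -0.41 to 0.13 and 0.36 to 0.52. The miR-21a-5p EC rise ran from 0.84 to 1.42, its difference of rises from 1.68 to 2.26 and its AT2 step from E18.5 to P1 from 1.19 to 1.86. The miR-210-3p fall ran from -1.36 to -1.21 in AT2 cells and -1.48 to -0.88 in EC, and its difference of changes from -0.41 to 0.19. E18.5 to P1 in EC could not be fitted without either of its samples.

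Deviations of samples with the same title ID correlated at -0.02 to 0.31, 1 of them under 0.1. At E16.5 and at P7 the IDs share 1 value, 0.27 and 0.28, because the groups hold 2 samples. The consensus correlation by title ID was 0.23. These values do not show that the IDs are unpaired, but the main fits did not use the IDs. The sign-flip tests treat them as pairs. A replicate block by title ID gave miR-21a-5p 3.10, 1.28 and 1.82 for AT2 cells, EC and their difference and miR-210-3p -1.30 and -1.17, and changed no call of either member in the 8 comparisons refitted, AT2 minus EC at E16.5 and P28 included; for that difference it moved the number of microRNAs called from 5 to 21, and for E18.5 to P1 in EC from 4 to 12. AT2 minus EC at E16.5 and P28 was also refitted after seeing the data. At E16.5 scaling to the microRNA total, edgeR and DESeq2 gave miR-21a-5p -0.37, -1.17 and -0.86, without a call, and scaling to the total and DESeq2 gave miR-210-3p 1.75 and 1.26, now called; at P28 scaling to the total and edgeR gave miR-210-3p 1.51 and 1.12, without a call. The count of 5 for the difference was 2 with scaling to the microRNA total and 1 with edgeR. In EC the counts of miR-210-3p were 10 to 317, and 2 of 10 samples lay below background. Those 2, from P14 and P28, held 202707 and 113697 microRNA counts in total. EC E18.5 replicate 1, with a total of 36373, was above its limit. The part that depth has in this was not tested.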
